A study of Homo sapiens with 6 samples.

Results

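The 10 genes followed here belong to insulin and insulin-like growth factor (IGF) signalling and were measured in SW1736 cells, a line from a human anaplastic thyroid cancer. They are the receptors INSR, IGF1R and IGF2R, the adaptors IRS1 and IRS2, and the binding proteins IGFBP3, IGFBP4, IGFBP5, IGFBP6 and IGFBP7. They were chosen by gene symbol, as 10 of the 20288 protein-coding genes in the table, and with the hypoxia to normoxia contrast of these libraries in view. What that contrast gives for them is therefore a description. Small RNA was sequenced from cells kept for 72 h at 21% O2 (normoxia, n = 3 libraries) or at 2% O2 (hypoxia, n = 3 libraries). Both groups grew in the same medium with fetal bovine serum depleted of exosomes. The labels do not say whether the numbered replicates were separate cultures, so errors describe the spread between these libraries. A count for a gene is the number of short RNA fragments that aligned to its transcript, not of intact mRNA molecules.

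Insulin and the IGFs act through INSR and IGF1R, receptor tyrosine kinases that phosphorylate the adaptors IRS1 and IRS2, which then recruit PI3 kinase and switch on AKT. IGF2R has no kinase and takes IGF2 into the cell for breakdown, besides sorting lysosomal enzymes. The IGFBPs are secreted proteins that hold IGFs away from IGF1R or release them after cleavage, and many thyroid cancer cells respond to this axis.

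The sequences most useful for reading the results are those of the genes with the clearest differences and of the INSR exon that the counts cannot see. INSR is made in forms with and without exon 11, a coding exon whose skipping gives the form with the higher affinity for IGF2. The table counts INSR on a transcript of 21 exons that lacks this exon, while a transcript of 22 exons holds it, so the counts do not separate the forms. Exon 11 has 36 bases (chr19:7150497-7150532, GRCh38, minus strand) and is in capitals. On each side are 20 bases of the neighbouring exon, as in the spliced transcript of 22 exons.
INSR exon 11: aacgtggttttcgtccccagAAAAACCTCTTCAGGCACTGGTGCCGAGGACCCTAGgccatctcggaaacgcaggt
The 250 bases before the RefSeq start of IRS2 and IGFBP4 are shown because fragments of these genes were called different (RefSeq, GRCh38.p14). Those of IGF2R are shown because they held the most motif matches with each strand counted. Capitals mark matches of the hypoxia response element cores ACGTG and GCGTG on either strand.
IRS2, chr13:109786584-109786833, minus strand: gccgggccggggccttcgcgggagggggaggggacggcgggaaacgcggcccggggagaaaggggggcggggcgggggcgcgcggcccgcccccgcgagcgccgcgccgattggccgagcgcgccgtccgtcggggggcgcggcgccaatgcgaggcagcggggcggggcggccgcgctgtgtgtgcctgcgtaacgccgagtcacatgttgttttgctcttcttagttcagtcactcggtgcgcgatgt
IGFBP4, chr17:40443200-40443449, plus strand: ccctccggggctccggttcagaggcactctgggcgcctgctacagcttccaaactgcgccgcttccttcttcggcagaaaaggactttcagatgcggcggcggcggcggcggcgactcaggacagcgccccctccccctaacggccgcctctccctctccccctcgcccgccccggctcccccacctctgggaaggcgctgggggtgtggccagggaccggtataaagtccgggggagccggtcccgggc
IGF2R, chr6:159968832-159969081, plus strand: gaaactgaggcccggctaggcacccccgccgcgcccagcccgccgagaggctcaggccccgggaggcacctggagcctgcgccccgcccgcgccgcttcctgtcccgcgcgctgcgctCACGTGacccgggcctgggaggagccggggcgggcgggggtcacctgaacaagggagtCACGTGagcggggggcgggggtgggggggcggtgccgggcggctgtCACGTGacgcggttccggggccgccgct
No match was found in the windows of IRS2 and IGFBP4, which says only that these letters are not there. In IGF2R, CACGTG began 132, 74 and 28 bases before the start, and as this word reads the same on both strands it gave 6 matches of ACGTG. The 250 bases before the start of IGF1R, not shown, held 5 matches at separate positions. Counted by position, IGF1R thus held more than IGF2R. Of the 9 members with a promoter entry, 3 held ACGTG, 3 held GCGTG and 4 held either in a window of 250 bases before to 50 bases after the start. Over all 35116 promoters of that length the shares were 21.4% for ACGTG, 36.5% for GCGTG and 48.4% for either. These shares were not matched for base content. The windows of the 9 members held 59.0% to 79.7% G or C, against a median of 58.7% over all promoters.

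The libraries held 1469151 to 1781753 counts over mature miRNAs and protein-coding transcripts, and the 10 genes gave 44 to 2174 counts each per library. Levels are in normalized CPM, counts scaled to a common library total. The hypoxia marker miR-210-3p stood at 29.1 ± 4.93 in normoxic and 190.3 ± 33.1 in hypoxic libraries (mean ± SD, n = 3 per group). Among thyroid follicular markers, PAX8 and FOXE1 had enough counts to be tested, while TG, TSHR, SLC5A5 and NKX2-1 had 0 to 11 counts per library. VIM, a mesenchymal marker, was called higher in hypoxia, by 0.39 on the log2 scale (edgeR, adjusted p = 0.0198). Of 9 epithelial and mesenchymal markers 7 were tested, EPCAM and CDH1 being too low, and VIM was the 1 gene called. Over all mRNA features tested, 0.596% were called higher and 0.162% lower. The part of VIM in the results was not tested. Of 7 blood and endothelial markers 4 were tested. None was called by edgeR, 0 also at an unadjusted p under 0.05, and none of the 7 exceeded 25 counts in a library.

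Fragments of IRS2 were higher and those of IGFBP4 lower in hypoxic cells, and those of IGFBP3 lay higher in every hypoxic library without passing the threshold. Those of the receptors INSR and IGF2R, of IRS1 and of IGFBP6 and IGFBP7 had log2 fold changes between -0.11 and 0.23. In the edgeR fit across both tables, 1 member was called higher and 1 lower at an adjusted p under 0.05, against 0.596% and 0.162% of the 11082 mRNA features tested. All 10 members passed the filter on low counts. The hypoxic libraries lay wholly above the normoxic ones for 2 members and wholly below for 1, against 8.27% and 7.01% of the features tested. As the members were selected on this contrast, nothing is read from these shares. In RNA pooled from a culture, fewer cells that express a gene and less RNA per cell cannot be told apart. The median log2 fold change was -0.05 over the members and -0.01 over all mRNA features tested.

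**Figure D1:**
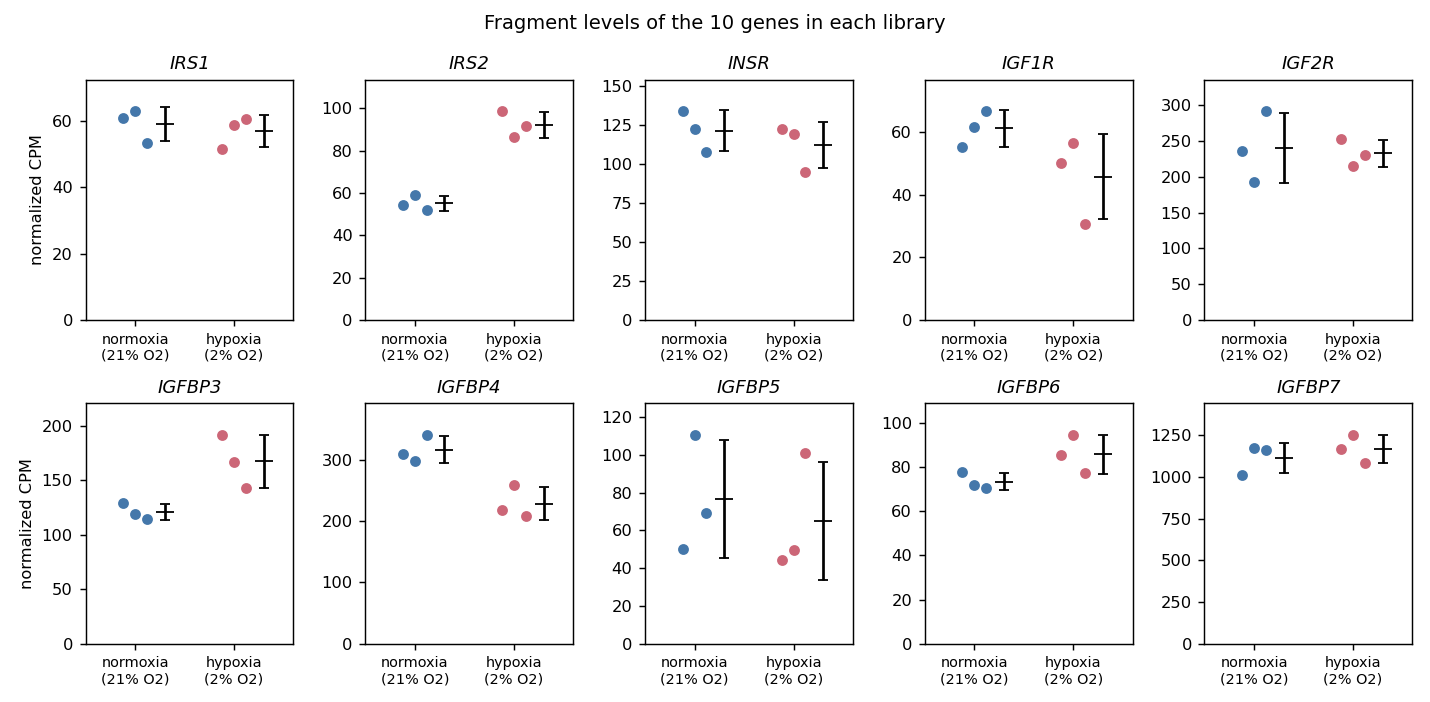
Normalized CPM of each gene in the 3 normoxic libraries (blue) and 3 hypoxic libraries (red), each panel with its own linear axis from 0; the black bar is the mean ± SD. The groups are apart for IRS2, IGFBP3 and IGFBP4 and overlap for the other genes, and IGFBP5 is high in normoxia replicate 2 and hypoxia replicate 3.

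IRS2 (ENSG00000185950.8) is a gene of 2 exons on chromosome 13 (109752695 to 109786583 in GRCh38, minus strand). It is the main insulin receptor substrate of liver and beta cells and shares its role with IRS1 in most tissues. Its level was 54.4, 59.1 and 52.1 normalized CPM in the normoxic libraries, in the order of their replicate numbers, and 98.7, 86.5 and 91.7 in the hypoxic ones. All hypoxic libraries stood well above all normoxic ones, and the spread within each group was small. The means were 55.2 ± 3.59 and 92.3 ± 6.12 (SD, n = 3 each), a ratio of 1.67 and a log2 fold change of 0.74 with a standard error of 0.147. These rest on 82 to 92 counts per library in normoxia and 132 to 161 in hypoxia. IRS2 was called in each of 13 alternative fits, with log2 fold changes from 0.69 to 0.79.

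IRS1 (ENSG00000169047.5; chromosome 2, 226731312 to 226799820, minus strand, 2 exons) is the broadly expressed adaptor of the family. Its level was 60.9, 63.0 and 53.3 normalized CPM in normoxia and 51.5, 58.8 and 60.5 in hypoxia. The groups overlapped, with means of 59.1 ± 5.08 and 56.9 ± 4.78 (SD, n = 3 each) and a log2 fold change of -0.05 (standard error 0.162). Within a library, the ratio of IRS2 to IRS1 counts, each per kb of transcript, was 1.07, 1.12 and 1.16 in normoxia and 2.29, 1.75 and 1.81 in hypoxia. Both adaptors were thus at similar levels per length in normoxia, and IRS2 was the more abundant in every hypoxic library, with mean ratios of 1.12 ± 0.0493 and 1.95 ± 0.292 (SD, n = 3 each). Of 25-base words in the whole transcript, 3.64% of those of IRS2 and 0.985% of those of IRS1 also occur in transcripts of other genes. Short fragments could be shared there, but words outside the coding sequence, where reads were by the study's methods not kept, were not counted apart.

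Fragments of the receptors were not called different. INSR (ENSG00000171105.13; chromosome 19, 7112255 to 7294414, minus strand) was at 134.1, 122.8 and 107.9 normalized CPM in normoxia and 122.6, 119.3 and 95.2 in hypoxia. The groups overlapped, hypoxia replicate 3 being the lowest, and the log2 fold change was -0.11 (standard error 0.130). IGF2R (ENSG00000197081.12; chromosome 6, 159969082 to 160113507, plus strand, 48 exons) was at 235.8, 193.4 and 292.1 in normoxia and 253.1, 215.6 and 230.0 in hypoxia. Its normoxic libraries spanned all the hypoxic ones, with means of 240.5 ± 49.5 and 232.9 ± 18.9 (SD, n = 3 each) and a log2 fold change of -0.05 (standard error 0.120).

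IGF1R (ENSG00000140443.13; chromosome 15, 98648539 to 98964530, plus strand, 21 exons), the receptor through which both IGFs drive growth, was at 55.1, 61.7 and 66.7 normalized CPM in normoxia and 50.3, 56.5 and 30.6 in hypoxia. Its hypoxic mean was lower, 45.8 ± 13.5 against 61.1 ± 5.82 (SD, n = 3 each), but hypoxia replicate 2 overlapped with normoxia and hypoxia replicate 3 lay far below the others. The log2 fold change of -0.40 (standard error 0.185) was -0.19 without hypoxia replicate 3, which had 44 counts of the gene, and -0.59 without hypoxia replicate 2. The ratio of IGF1R to INSR per kb of transcript was 0.312, 0.381 and 0.469 in normoxia and 0.311, 0.359 and 0.244 in hypoxia. Fragments of INSR thus exceeded those of IGF1R per length in all 6 libraries, and the ratios of the groups overlapped.

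**Figure D2:**
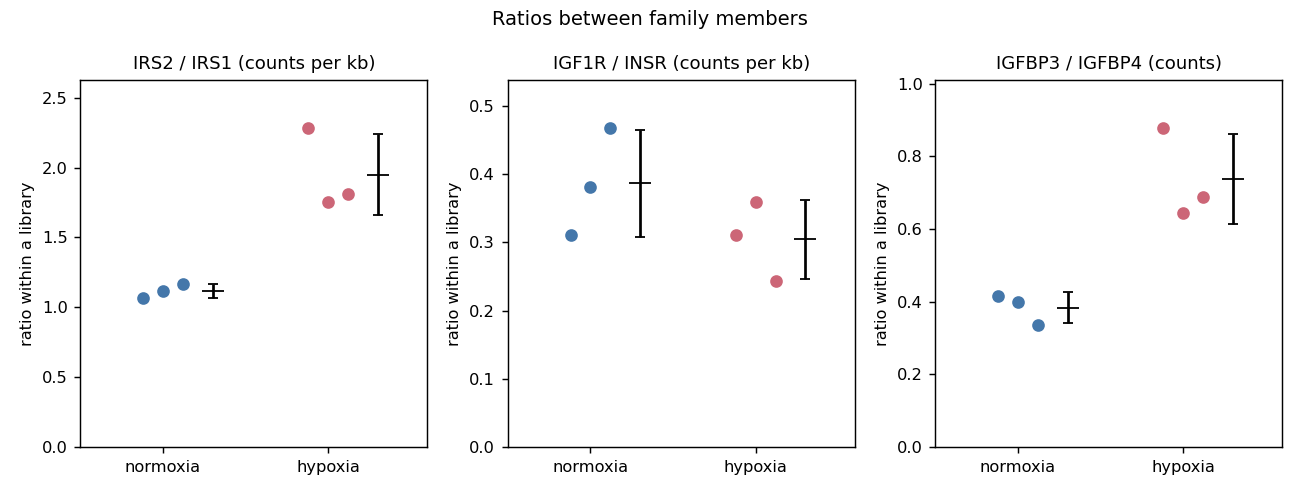
Ratio of counts of IRS2 to IRS1 and of IGF1R to INSR (both per kb of transcript) and of IGFBP3 to IGFBP4 (counts) within each library, in normoxia (blue) and hypoxia (red), with the mean ± SD in black (n = 3 each; linear axes from 0). The hypoxic ratios lie above all normoxic ones for IRS2 to IRS1 and for IGFBP3 to IGFBP4, and overlap with them for IGF1R to INSR.

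IGFBP4 (ENSG00000141753.6; chromosome 17, 40443450 to 40457725, plus strand, 4 exons) encodes a binding protein that mainly inhibits IGF action until the protease PAPPA cleaves it. Its level was 309.7, 298.2 and 341.0 normalized CPM in normoxia and 218.2, 259.4 and 207.8 in hypoxia. Every hypoxic library was below every normoxic one. The means were 316.3 ± 22.1 and 228.5 ± 27.3 (SD, n = 3 each), a ratio of 0.722 and a log2 fold change of -0.47 (standard error 0.107). The call was less steady than that of IRS2. IGFBP4 was called in 8 of 13 alternative fits, and not by DESeq2 (log2 fold change -0.47) or without normoxia replicate 1 (-0.48), normoxia replicate 3 (-0.41), hypoxia replicate 1 (-0.44) or hypoxia replicate 3 (-0.40).

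IGFBP3 (ENSG00000146674.14; chromosome 7, 45912245 to 45921874, minus strand, 5 exons), the main IGF carrier of serum, was at 128.9, 118.9 and 114.3 normalized CPM in normoxia and 191.8, 167.2 and 143.1 in hypoxia. All hypoxic libraries lay above the normoxic ones, though hypoxia replicate 3 only by a little. The means were 120.7 ± 7.48 and 167.4 ± 24.3 (SD, n = 3 each), a ratio of 1.39 and a log2 fold change of 0.47 (standard error 0.122). IGFBP3 was not called in the fit with all libraries. It was called in 3 of the 13 alternatives: without the filter on low counts, with the mRNA table alone, and without hypoxia replicate 3, where the log2 fold change was 0.57.

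Within a library, IGFBP3 gave 0.416, 0.399 and 0.335 counts per count of IGFBP4 in normoxia and 0.879, 0.644 and 0.689 in hypoxia. This balance of the binding proteins was higher in every hypoxic library, with means of 0.383 ± 0.0427 and 0.738 ± 0.125 (SD, n = 3 each), and it does not depend on how the libraries were scaled. Of all counts of the 5 IGFBP members, IGFBP4 took 18.6 ± 1.55% in normoxic and 13.3 ± 0.807% in hypoxic libraries, and IGFBP3 7.13 ± 0.904% and 9.76 ± 1.30% (SD, n = 3 each). The summed level of the 5 overlapped between the groups, at 1580 to 1773 normalized CPM in normoxia and 1615 to 1824 in hypoxia.

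IGFBP7 (ENSG00000163453.11; chromosome 4, 57030773 to 57110385, minus strand, 5 exons), a relative that binds IGFs weakly and is found in vessel walls and matrix, was by far the most abundant member. It was at 1013, 1173 and 1162 normalized CPM in normoxia and 1167, 1253 and 1086 in hypoxia. The groups overlapped, and the log2 fold change was 0.07 with a standard error of 0.0942, the smallest standard error of the 10 members. It took 65.5 ± 1.16% of the counts of the 5 IGFBPs in normoxic and 68.1 ± 0.765% in hypoxic libraries (SD, n = 3 each).

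IGFBP6 (ENSG00000167779.7; chromosome 12, 53097436 to 53102345, plus strand, 4 exons), which prefers IGF2 to IGF1, was at 77.7, 72.0 and 70.5 normalized CPM in normoxia and 85.2, 94.5 and 77.1 in hypoxia. Hypoxia replicate 3 fell just under normoxia replicate 1, so the groups overlapped, and the log2 fold change was 0.23 (standard error 0.142). IGFBP5 (ENSG00000115461.4; chromosome 2, 216672105 to 216695549, minus strand, 4 exons), which binds the extracellular matrix, was at 49.9, 110.5 and 69.2 in normoxia and 44.1, 49.6 and 100.8 in hypoxia. It was the most variable member, high in 1 library of each group, with 172 counts in normoxia replicate 2 and 145 in hypoxia replicate 3 against 72 to 109 in the others. Its log2 fold change of -0.26 (standard error 0.466) was 0.10 without normoxia replicate 2 and -0.70 without hypoxia replicate 3, so no direction can be given.

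**Figure D3:**
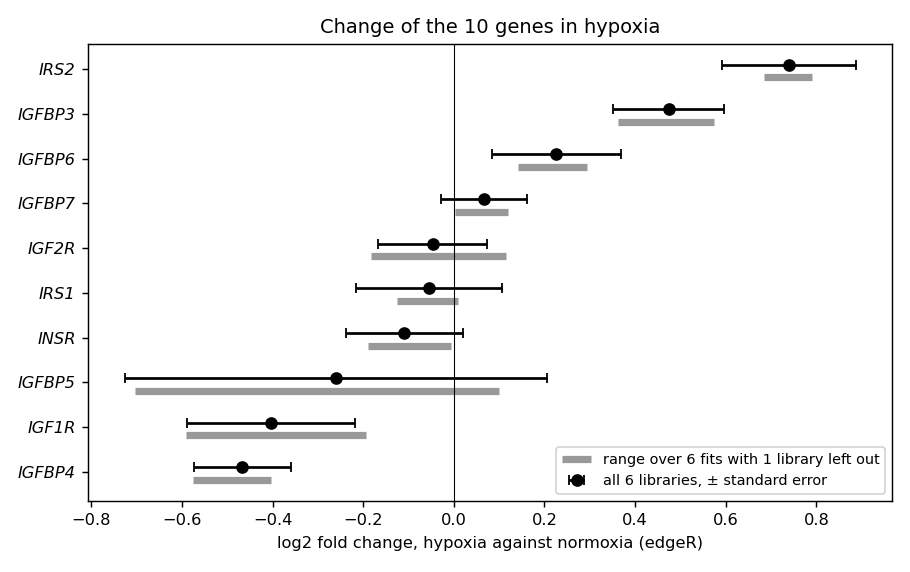
Log2 fold change of each gene in hypoxia against normoxia from edgeR with all 6 libraries (points, bars ± standard error) and its range over 6 fits that each leave out 1 library (grey bars). The range stays above 0 for IRS2, IGFBP3, IGFBP6 and IGFBP7, stays below 0 for IGFBP4, IGF1R and INSR, and crosses 0 for IGFBP5, IRS1 and IGF2R. It all but reaches 0 for IGFBP7 (0.0027) and INSR (-0.0060), for which no direction can be given.

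Divided by transcript length, the levels in normoxia ran from IGFBP7 at 782.1 ± 62.5 CPM per kb through IGFBP4 (143.8 ± 10.1), IGFBP6 (62.4 ± 3.26) and IGFBP3 (50.04 ± 3.10) to IGF1R at 5.18 ± 0.493 (SD, n = 3 each). By this length, the secreted binding proteins except IGFBP5 were above all receptors and adaptors. Between them came IGF2R at 17.1 ± 3.52, INSR at 13.6 ± 1.47, IGFBP5 at 12.3 ± 4.99, IRS2 at 6.78 ± 0.442 and IRS1 at 6.09 ± 0.523. Ranges of neighbours in this order overlapped between IGF2R and INSR, INSR and IGFBP5, IRS2 and IRS1, and IRS1 and IGF1R. In hypoxia IRS2, at 11.3 ± 0.752 CPM per kb, ranked 7 instead of 8, ahead of IGFBP5 at 10.4 ± 5.03, but the ranges of both genes overlapped there (10.6 to 12.1 and 7.10 to 16.2). The study's methods say that reads outside the coding parts of mRNAs were not kept, while the length in the table is that of the whole transcript. Per kb of coding sequence the order differed. IGFBP3, at 138.3 ± 8.57, then stood above IGFBP6 at 102.8 ± 5.37 in normoxia, and IRS2 ranked 10 in normoxia and 8 in hypoxia. IGFBP5, at 93.8 ± 38.0 in normoxia, ranked 5 in both groups, so its mean was then also above those of all receptors and adaptors. IGFBP7 and IGFBP4 ranked 1 and 2 with either length.

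By the distance between centred log2 profiles over the 6 libraries, the features most like IRS2 were DSG2 (root mean square distance 0.0549), ARHGEF25 (0.0739) and AUP1 (0.0811), among 9670 features with at least 10 normalized CPM on average. Those most like IGFBP4 were CCDC71L (0.0638), TNRC18 (0.0679) and MARCKSL1 (0.0766). These are likenesses over 6 libraries that share the same 2 groups, given as a description.

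The genes around the members were taken from textbook lists of 73 pathway genes, of which 58 had enough counts to be tested. By edgeR 3 were higher (STC1, STC2 and SOCS2) and 0 were lower, against 0.596% and 0.162% of all mRNA features tested. At an unadjusted p under 0.05 there were 7 higher and 2 lower, against 5.58% and 4.67% of all mRNA features. DESeq2 and limma-voom also called none lower. Their median log2 fold change was -0.03. STC1, STC2 and SOCS2, like IRS2 and IGFBP4, are among the genes that the study itself listed as changed in these libraries, so the count is not independent evidence of direction.

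The ligands and the remaining family members were close to absent as fragments. INS and IGFBPL1 had 0 counts in all 6 libraries, which allows up to 3 counts in a library. IGF1 had 5 to 10 counts per library in normoxia and 5 to 14 in hypoxia, and IGF2 had 2 to 9 and 1 to 5. IGFBP1, IGFBP2, IGFALS, INSRR and IRS4 had at most 5 counts in any library. None of these 9 genes passed the filter on low counts, so differences in them were not detectable at this depth.

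Of 5 proteases that cleave IGFBPs and their inhibitors, 4 were tested. By edgeR 2 were higher, the stanniocalcins, and 0 lower, against 0.596% and 0.162% of all mRNA features tested. The list was chosen with earlier results known and the study listed both stanniocalcins as changed, so nothing is read from this count. STC1, a secreted glycoprotein that blocks PAPPA, was at 20.1, 26.4 and 25.4 normalized CPM in normoxia and 55.2, 52.5 and 41.0 in hypoxia. All hypoxic libraries were above the normoxic ones, with a difference of 1.05 on the log2 scale (edgeR, standard error 0.206, adjusted p = 0.00353), but without hypoxia replicate 2 it was not called (adjusted p = 0.0619). STC2, which binds PAPPA covalently, was at 29.2, 23.8 and 31.1 in normoxia and 72.3, 73.8 and 63.9 in hypoxia (1.32 on the log2 scale, standard error 0.181, edgeR adjusted p = 3.13e-05), and was called in all 13 alternatives. PAPPA itself, the protease that cleaves IGFBP4, had 26.9 ± 7.78 and 36.1 ± 4.93 normalized CPM (SD, n = 3 each; 0.41 on the log2 scale, edgeR adjusted p = 0.541). HTRA1, a serine protease that cleaves IGFBP5, differed by -0.05 on the log2 scale (edgeR adjusted p = 0.978), and PAPPA2 was too low to test, with 4 to 9 counts per library.

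Of 15 adaptors and brakes close to the receptors, 12 were tested, 1 was higher and 0 were lower by edgeR, and 2 and 1 at an unadjusted p under 0.05. The shares over all mRNA features were 0.596% and 0.162% called and 5.58% and 4.67% unadjusted, so a list of this size would hold few calls at those shares. SOCS2, a feedback inhibitor of growth hormone and IGF1 receptor signalling, was at 16.2, 25.7 and 26.7 normalized CPM in normoxia and 42.3, 45.5 and 41.7 in hypoxia, with no overlap. The difference was 0.92 on the log2 scale (edgeR, standard error 0.216, adjusted p = 0.0237). It was not called by DESeq2 (adjusted p = 0.0938), nor by edgeR without normoxia replicate 1 (0.226), hypoxia replicate 1 (0.0733), hypoxia replicate 2 (0.209) or hypoxia replicate 3 (0.0528). DOK1, an adaptor that dampens kinase signalling, differed by -0.54 on the log2 scale (edgeR adjusted p = 0.665) on 10 to 20 counts per library.

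In the lists downstream of the receptors the counts were small, as are the shares of all mRNA features called (0.596% higher and 0.162% lower), at which fewer than 1 call would fall in either list, so nothing is read from the absence of calls. Of 29 tested genes of the PI3K, AKT, mTOR and FOXO branch, edgeR called 0, with 3 higher and 1 lower at an unadjusted p under 0.05 (5.58% and 4.67% over all mRNA features). Their log2 fold changes ran from -0.43 for the transcription factor FOXO4 (adjusted p = 0.675) to 0.39 for the kinase subunit PIK3CD (adjusted p = 0.804), with a median of -0.02. Of 11 genes of the RAS and ERK branch edgeR called 0, also 0 at an unadjusted p under 0.05, with a median of -0.09. Of the 3 proteins that bind IGF2 mRNA, IGF2BP2 stood at -0.03 (adjusted p = 0.956) and IGF2BP3 at 0.10 (adjusted p = 0.843), and IGF2BP1 was too low to test. DESeq2 and limma-voom also called none of these genes.

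**Figure D4:**
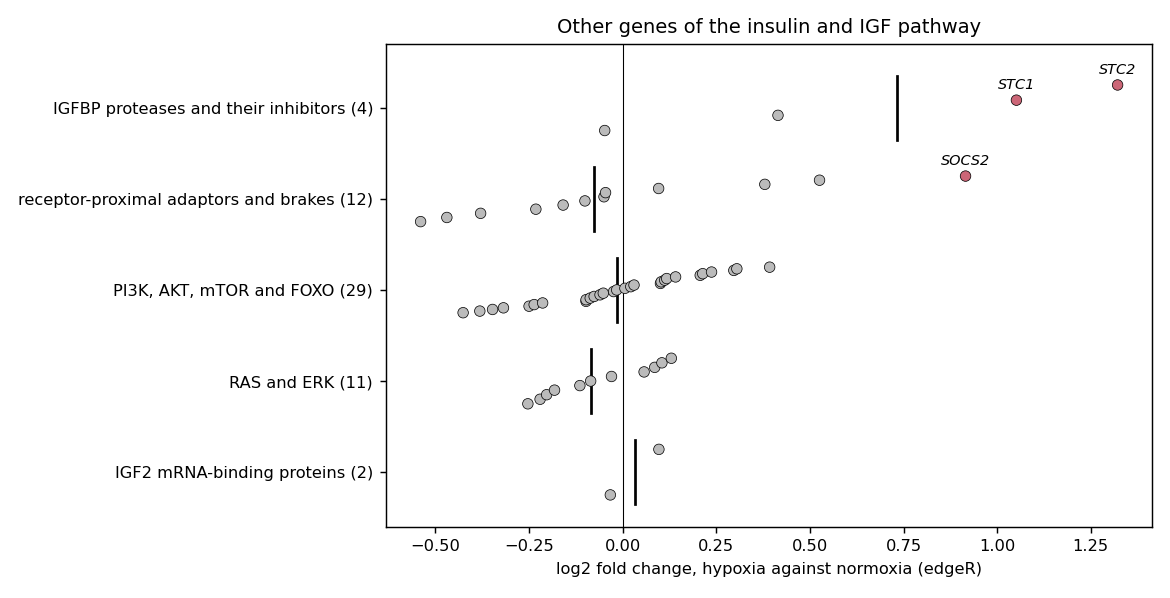
Log2 fold change in hypoxia against normoxia from edgeR for the 58 tested pathway genes outside the 10 members, by list, with the number tested in parentheses; red points were called higher, grey points were not called, and the black line is the median of the list. STC2, STC1 and SOCS2 stand at 1.32, 1.05 and 0.92, and no gene of the PI3K or RAS branches was called.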

How the data were processed

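Small RNA was profiled in 6 libraries of SW1736 cells, 3 at 21% O2 and 3 at 2% O2 for 72 h, prepared with CATS, which tails RNAs with a free 3′ hydroxyl and needs no ligation. The authors trimmed reads with Cutadapt, set aside housekeeping small RNAs, mapped what remained stepwise, first to miRNAs (miRBase) and then to mRNAs and lncRNAs of GENCODE, and took read numbers from eXpress. The submitters' processing notes also name FastQC, Bowtie, Bowtie2 and hg38. The deposited tables hold raw counts, 1 row for each miRNA and for each protein-coding gene, with transcript length, which is another deposited column. Library selection by size and the tailing of short fragments mean that counts for mRNAs reflect how transcripts fragment as well as how abundant they are.

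Both count tables were joined, filtered with filterByExpr, scaled by TMM and tested with edgeR 4.0.16 (R 4.3.3; quasi-likelihood test with the robust option, two-sided, Benjamini-Hochberg over 11276 features, called at an adjusted p under 0.05). No covariate was used. The script was tested on simulated data. Levels are TMM-normalized CPM. The libraries held 1469151 to 1781753 counts, and no pair of the same group agreed within sampling noise (chi-square per degree of freedom of 1.97 or more). Alternatives were DESeq2 1.42.0, its size factors in edgeR, no filter, the mRNA table alone, limma-voom (limma 3.58.1), a replicate block, no robust option (chosen after seeing the data) and leaving out each library. Members and lists were chosen with earlier results of these data known. Named are all 10 members, each called pathway gene, all ligands, family members, proteases and their inhibitors, the 2 tested genes with the largest absolute log2 fold change in each other list (some genes that the rule names are not reported here), and the 3 nearest features to IRS2 and IGFBP4 (log2 CPM, prior count 2). Transcripts were matched to the annotation of GENCODE 44 (GRCh38). The IGF1R transcript of the table was not matched in that release, which is later than the one the authors used, so another transcript of the gene stands in for it in coordinates and coding length. Promoters are from RefSeq (GRCh38.p14), matched by symbol for 9 of 10 members (all but IGFBP7).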

Additional observations from a re-analysis of the deposited data

How the results depend on the processing

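IRS2 was called higher under every alternative run. DESeq2 called 34 mRNA features higher and 4 lower, and 0 members lower. Without the filter on low counts 44 mRNA features were lower and 2 members higher, with the mRNA table alone 2 members were higher, and with limma-voom 11 mRNA features were lower and HTRA1 had a log2 fold change of 0.025. With 1 library left out, 26 to 80 mRNA features were higher and 3 to 39 lower, members called were 1 to 2 higher and 0 to 1 lower, and 1 to 4 pathway genes were higher. The log2 fold changes then ran from -0.13 to 0.010 for IRS1, -0.18 to 0.12 for IGF2R, -0.70 to 0.10 for IGFBP5, -0.33 to 0.15 for HTRA1 and -0.13 to 0.054 for IGF2BP2. The cause of these changes was not tested. The robust option, left out after seeing the data, changed no call of a member. Same-numbered libraries did not deviate together (correlations 0.0134, -0.00807 and -0.120), and libraries of unlike number reached -0.117 and 0.120. With 3 libraries per group, this cannot show whether same-numbered cultures were handled together. With a replicate block 60 mRNA features were higher and 14 lower, and 1 member was higher and 1 lower. At 44 to 207 counts per library for IRS1, IRS2, IGF1R, IGFBP5, IGFBP6 and INSR, counting error limits what can be seen of small differences.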

Other observations

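IGFBP5 was high in normoxia replicate 2 and hypoxia replicate 3, and other genes shared or mirrored that pattern across the groups. They were picked after their values were seen and are given as values only. Among features with at least 10 normalized CPM on average, the 3 nearest to IGFBP5 over the 6 libraries were YARS2, SYT16 and LPAR6, at root mean square distances of 0.123, 0.140 and 0.152. LPAR6, a lysophosphatidic acid receptor, was at 11.7, 20.6 and 14.0 normalized CPM in normoxia and 11.03, 10.4 and 22.2 in hypoxia. Fragments of HTRA1 ran the other way, at 125.7, 57.2 and 116.2 in normoxia and 93.8, 112.4 and 82.0 in hypoxia. The lowest library of HTRA1 in each group was the one in which IGFBP5 was highest, by a wide margin in normoxia and a narrow one in hypoxia. Normoxia replicate 2 and hypoxia replicate 3 also deviated together over all features with at least 10 normalized CPM on average. Their correlation of 0.120 was the highest between a normoxic and a hypoxic library, so the pattern is not particular to these genes. FN1, the fibronectin gene and one of the most abundant in these cells, was also lowest in these libraries of each group, at 23216, 14632 and 22108 normalized CPM in normoxia and 23170, 19386 and 18309 in hypoxia. What links these values was not tested.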
